A study of Homo sapiens with 3 samples.

Results

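SCRIB and other genes of epithelial cell polarity were described in HepG2, a human liver carcinoma line labelled as wild type. One library each came from cells exposed for 48 h to 20 µM A740003, to 20 µM A438079, and to PBS. The series' design text describes both compounds as specific antagonists of the ATP-gated channel P2X7 and calls PBS the control; the sources used here do not name their solvent. The genes were taken from a list of 9 names, SCRIB, LLGL1, LLGL2, DLG1, PARD3, PARD6B, PRKCI, CRB3 and TJP1, by gene name in the deposited table of expected counts. Of these, 8 were found among 62680 rows, and all 8 passed the filter of a mean of at least 1 CPM, the count scaled to the size of its library, which 12270 genes passed. TJP1, the gene of the tight junction scaffold ZO-1, is not analysed here. The list was chosen by the measured ratio of SCRIB over PBS, known to be low in both antagonist libraries, and filled with genes of the same biology, so the ratios are given as a description.

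Epithelial cells keep an apical and a basolateral surface apart with protein modules that exclude each other. The Scribble module, made of Scribble, the LGL proteins and the DLG proteins, marks the basolateral side. The PAR complex, made of PAR3, PAR6 and atypical protein kinase C, and the Crumbs module mark the apical side, and atypical protein kinase C phosphorylates LGL proteins and so removes them from the apical cortex. In hepatocytes the apical surface is the bile canaliculus, and HepG2 cells in culture form small lumens of that kind between neighbouring cells.

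With a single library per treatment there is nothing to test a difference against, and the intervals below cover counting error only. The libraries were of like depth, 19735589 expected counts for A740003, 19606793 for A438079 and 19375523 for PBS. All 11 markers of the hepatocyte line were above the filter in this set, with summed levels of 23624 CPM with A740003, 25471 CPM with A438079 and 23892 CPM with PBS. Of 8 mesenchymal markers 6 (COL1A1, COL1A2, COL3A1, DCN, LUM and VIM) were at 0 counts in the 3 libraries, and the list summed to 19.2 CPM with A740003, 22.1 CPM with A438079 and 20.9 CPM with PBS, nearly all of it ACTA2. Of 6 macrophage and leukocyte markers 3 (PTPRC, CD3E and CSF1R) were at 0, and the list summed to 982 CPM with A740003, 984 CPM with A438079 and 1068 CPM with PBS, nearly all of it LYZ, the lysozyme gene. The 4 endothelial markers measured (CDH5, KDR, TEK and VWF) were at 0. The 6 cholangiocyte markers summed to 1147 CPM with A740003, 1086 CPM with A438079 and 1283 CPM with PBS, with CFTR and KRT7 at 0. In bulk RNA, fewer cells of a kind and less RNA per cell cannot be told apart.

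The members of the list differed widely in base composition. In the GENCODE release 29 annotation (GRCh38), the longest coding transcripts of SCRIB, LLGL2, LLGL1 and CRB3 had a GC content of 66.5%, 64.0%, 61.5% and 60.9%, all in the highest of 4 equal groups of the genes compared, which begins at 55.9%. PARD3 stood at 50.3%, in the group below it. PARD6B, PRKCI and DLG1 stood at 40.0%, 39.1% and 38.7%, in the lowest group. The middle 120 coding bases of LLGL1 and LLGL2 (chromosome 17) and of DLG1 and PRKCI (chromosome 3) show the contrast. G and C are in capitals, and the sequences were cut from the GENCODE release 29 transcripts, which are spliced, at coding bases 1537 to 1656, 1471 to 1590, 1330 to 1449 and 835 to 954, counted from the start codon.
LLGL1: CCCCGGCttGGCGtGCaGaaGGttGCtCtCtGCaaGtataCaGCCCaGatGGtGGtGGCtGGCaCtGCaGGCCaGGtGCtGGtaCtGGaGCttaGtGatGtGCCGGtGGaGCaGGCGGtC
LLGL2: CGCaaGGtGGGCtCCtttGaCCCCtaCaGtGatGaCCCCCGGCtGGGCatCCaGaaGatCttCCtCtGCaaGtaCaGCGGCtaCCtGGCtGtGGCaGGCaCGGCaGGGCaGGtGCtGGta
DLG1: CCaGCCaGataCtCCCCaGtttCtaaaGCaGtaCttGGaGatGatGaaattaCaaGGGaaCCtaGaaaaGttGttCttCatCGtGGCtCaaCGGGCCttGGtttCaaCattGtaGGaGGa
PRKCI: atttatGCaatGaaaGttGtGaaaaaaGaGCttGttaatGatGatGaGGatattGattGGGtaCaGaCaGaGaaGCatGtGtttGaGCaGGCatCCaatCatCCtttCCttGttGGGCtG
Of these bases, 62.5% were G or C in both LLGL genes, against 45.0% in DLG1 and 39.2% in PRKCI. Over the whole coding sequence, the third codon positions held G or C at 79.0% in SCRIB, 81.1% in LLGL2, 77.5% in CRB3 and 74.4% in LLGL1, and at 32.6% in DLG1 and 40.1% in PRKCI.

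By the deposited FPKM values, which are scaled for length and so can be compared between genes, the apical PAR3 gene PARD3 was the highest of the 8 in every library. PARD3 had 39.6 FPKM with A740003, 41.3 FPKM with A438079 and 39.7 FPKM with PBS. DLG1 followed, at 33.6, 30.9 and 27.2 FPKM in the same libraries, and PRKCI came next, at 12.9, 11.7 and 10.4 FPKM. The Scribble module genes other than DLG1 lay lower. In the PBS library LLGL2 had 6.84 FPKM, CRB3 5.18, SCRIB 5.17 and PARD6B 4.53 FPKM, and with no replicates the order of CRB3 and SCRIB cannot be told. LLGL1 was the lowest of the 8 in each library, at 0.49 FPKM with A740003, 0.78 with A438079 and 1.5 FPKM with PBS.

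**Figure D1:**
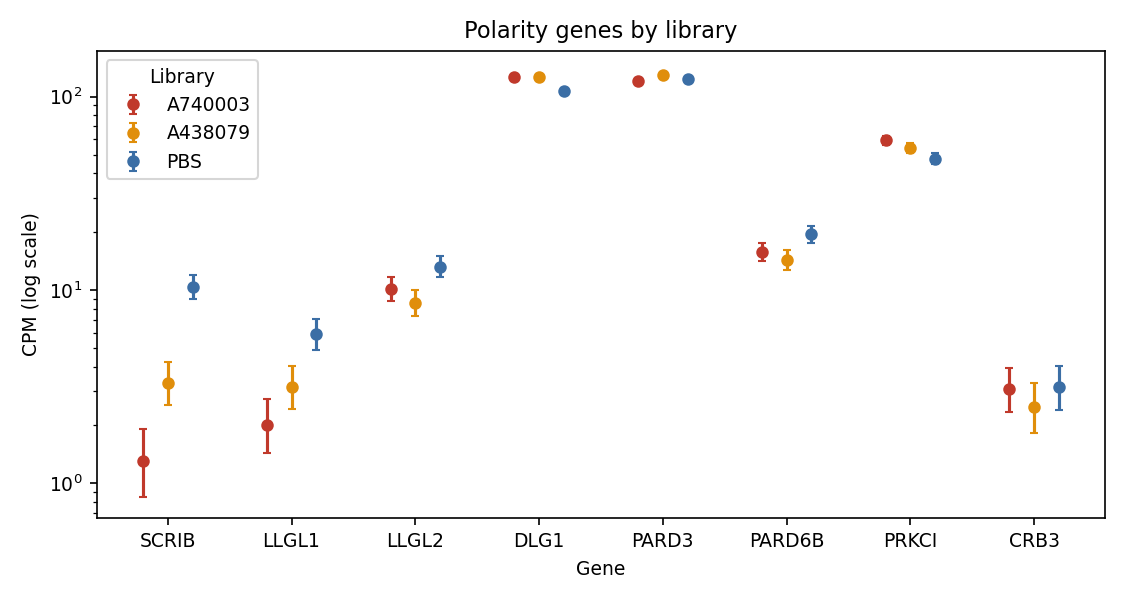
Level of the 8 polarity genes in each library, in CPM on a log axis (A740003, A438079, PBS from left to right within each gene). Points are 1 library each and bars are exact Poisson 95% counting intervals. SCRIB, LLGL1 and LLGL2 have intervals with either antagonist that lie wholly below the PBS interval, while the CRB3 intervals overlap. For LLGL2 with A740003 the gap is slight, with an upper bound of 11.59 CPM beside a PBS lower bound of 11.62 CPM.

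The comparisons with PBS asked how cells given either antagonist differed from control cells, and both used the same PBS library. A gene was called lower when the ratio of its scaled counts was at most the inverse of 1.5 with a 95% counting interval that excluded 1, and higher by the mirrored rule. With A740003, 2 of the 8 genes were lower and none was higher, while 10.7% of all genes compared were lower and 3.14% higher. With A438079, 3 of the 8 were lower and none was higher, beside 9.44% and 1.63% of all genes. The median log2 ratio of the 8 genes was -0.17 with A740003 and -0.39 with A438079, and that of all genes compared was 0.00097 with A740003 and -0.0036 with A438079. The lower genes by scaled counts were SCRIB and LLGL1 with A740003, and SCRIB, LLGL1 and LLGL2 with A438079. At 2-fold, SCRIB and LLGL1 remained lower with A740003, beside 5.46% of all genes (1.15% higher), and SCRIB alone with A438079, beside 3.74% (0.848% higher). Among genes whose mean reached 5 CPM, where LLGL1 and CRB3 drop out and SCRIB stays only through its PBS level, SCRIB was lower with A740003, beside 6.95% (1.49% higher), and SCRIB and LLGL2 with A438079, beside 5.48% (0.594% higher). Such counts over 8 chosen genes describe the list and show nothing particular to it.

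SCRIB (ENSG00000180900; chromosome 8, 143790920 to 143815379, minus strand, GENCODE release 29 on GRCh38), which encodes the leucine-rich repeat and PDZ scaffold Scribble, had 26 counts with A740003, 64 with A438079 and 202 with PBS. These counts are 1.31 CPM (exact Poisson 95% interval 0.853 to 1.91) with A740003, 3.30 CPM (2.54 to 4.22) with A438079 and 10.4 CPM (9.02 to 11.9) with PBS. The 3 intervals did not overlap, and the PBS library was the highest. For A740003 this gave a ratio over PBS of 0.126 (95% counting interval 0.0801 to 0.189), and for A438079 one of 0.317 (0.236 to 0.422). Counted from the lowest log2 ratio, SCRIB was number 22 of 12270 genes with A740003 and number 82 with A438079. The list was chosen by this low ratio, so the ranks only describe the choice.

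The LGL genes encode WD-repeat proteins that act with Scribble at the basolateral membrane. LLGL1 (ENSG00000131899; chromosome 17, 18225587 to 18244875, plus strand, same annotation) had 40 expected counts with A740003, 61 with A438079 and 114.75 with PBS. The PBS value was again the highest, and it is not a whole number, unlike the other 2. Its ratio over PBS was 0.339 (0.231 to 0.490) for A740003 and 0.531 (0.383 to 0.731) for A438079. LLGL2 (ENSG00000073350; chromosome 17, 75525080 to 75575208, plus strand) is the LGL gene with the higher level of the pair, and it had 10.1 CPM with A740003, 8.56 CPM with A438079 and 13.2 CPM with PBS. It was at 0.766 times PBS (0.633 to 0.925) with A740003 and at 0.650 times (0.531 to 0.793) with A438079, just past the 1.5-fold limit with A438079. By scaled counts the paralogs thus lay below PBS in both antagonist libraries.

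DLG1 (ENSG00000075711; chromosome 3, 197042560 to 197299300, minus strand), the membrane-associated guanylate kinase of the module, differed in direction from SCRIB and the LGL genes. It had 2507 counts with A740003, 2436 with A438079 and 2068 with PBS. Both antagonist libraries were above PBS by small ratios, 1.18 (1.12 to 1.25) with A740003 and 1.18 (1.11 to 1.25) with A438079, short of 1.5-fold.

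None of the PAR complex genes passed the 1.5-fold limit. PARD3 (ENSG00000148498; chromosome 10, 34109560 to 34815325, minus strand), the gene of the PDZ scaffold PAR3, had 2384 counts with A740003, 2497 with A438079 and 2382 with PBS. Its ratios over PBS were 0.976 (0.922 to 1.03) for A740003 and 1.05 (0.993 to 1.11) for A438079, with 1 inside either interval. PRKCI (ENSG00000163558; chromosome 3, 170222365 to 170305981, plus strand) encodes the atypical protein kinase C iota, and it had 1181 expected counts with A740003, 1051.83 with A438079 and 925 with PBS. It was above PBS in both, at 1.25 times (1.14 to 1.36) under A740003 and at 1.14 times (1.04 to 1.25) under A438079. PARD6B (ENSG00000124171; chromosome 20, 50731544 to 50756795, plus strand), which encodes the adaptor PAR6 beta that holds the kinase in the complex, had 313 expected counts with A740003, 277.15 with A438079 and 378.05 with PBS. It was below PBS in both, at 0.808 times (0.693 to 0.941) under A740003 and at 0.734 times (0.626 to 0.860) under A438079. It thus did not reach the 1.5-fold limit that LLGL2 passed with A438079. By scaled counts the kinase gene and its adaptor gene stood on opposite sides of PBS, and both are in the lowest GC group.

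CRB3 (ENSG00000130545; chromosome 19, 6463777 to 6467221, plus strand), the gene of the short transmembrane Crumbs protein of the apical membrane, had 61 counts with A740003, 48 with A438079 and 61 with PBS. Its ratio was 0.975 (0.673 to 1.41) for A740003 and 0.788 (0.529 to 1.17) for A438079. Both intervals include 1.

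**Figure D2:**
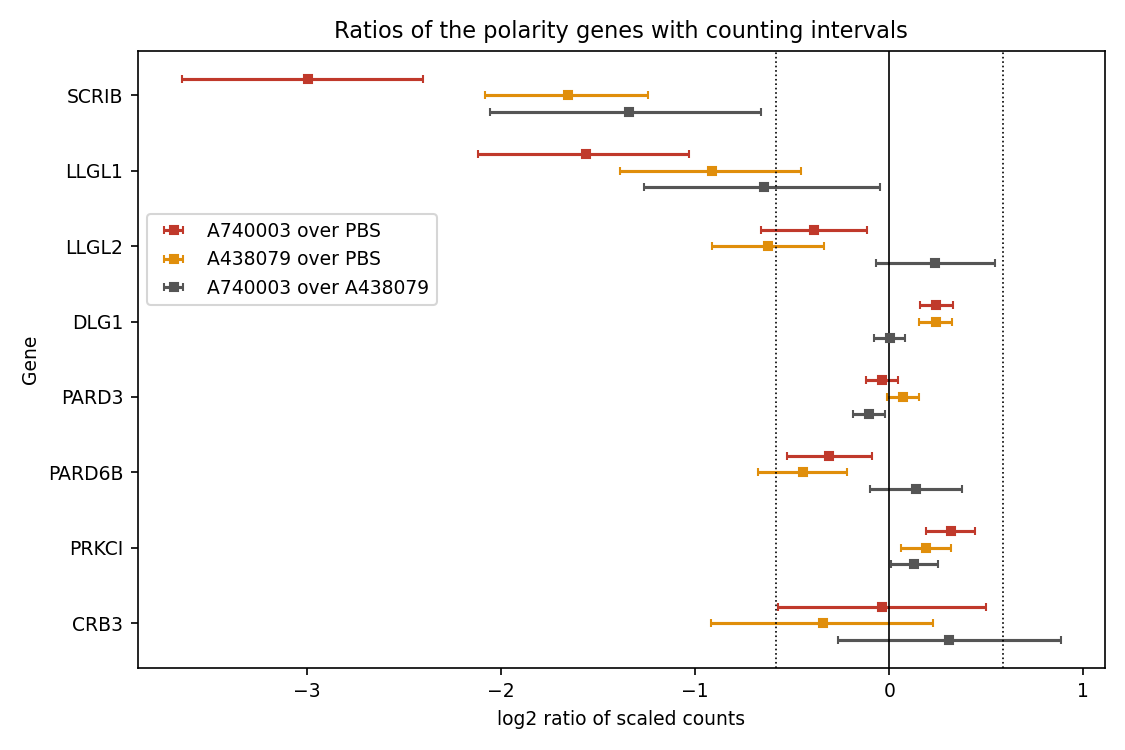
Log2 of the ratio of scaled counts for each of the 8 genes (rows), for A740003 over PBS, A438079 over PBS and A740003 over A438079 from top to bottom within a row. Bars are exact conditional binomial 95% counting intervals, and dotted lines mark 1.5-fold. SCRIB and LLGL1 lie left of the lower line in each comparison, and DLG1, PARD3 and PRKCI lie between the lines.

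A740003 was also compared directly with A438079, since both were given at 20 µM for 48 h. SCRIB and LLGL1 were lower with A740003 than with A438079, and none of the 8 genes was higher, beside 2.81% and 2.44% of all genes compared. SCRIB stood at 0.395 times the A438079 level (0.241 to 0.633) and LLGL1 at 0.638 times (0.417 to 0.967). LLGL2 leaned the other way, at 1.18 times (0.955 to 1.46), with an interval that includes 1. DLG1 was at 1.0 times (0.947 to 1.06), PARD3 at 0.929 times (0.878 to 0.984), PRKCI at 1.09 times (1.0 to 1.19), PARD6B at 1.10 times (0.933 to 1.30) and CRB3 at 1.24 times (0.834 to 1.85). For DLG1, PARD3, PRKCI and PARD6B the intervals exclude a 1.5-fold difference, and that of CRB3 does not. At 2-fold SCRIB alone was lower (1.16% of all genes lower, 0.978% higher), as among genes of at least 5 CPM (1.14% lower, 0.678% higher) and by fold alone with a trend in GC content and length removed (3.08% lower).

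For SCRIB the order of the antagonists depended on the unit. The deposited FPKM of SCRIB was 1.18 with A740003, 1.10 with A438079 and 5.17 with PBS. The PBS library was the highest on this scale too, with FPKM ratios over PBS of 0.228 for A740003 and 0.213 for A438079. The antagonist libraries, which differed by more than 2-fold in counts, were nearly equal, with an FPKM ratio of A740003 over A438079 of 1.07. The counts and FPKM of a gene together give the length by which the count was divided. For SCRIB that length was 1116 nt with A740003, 2967 nt with A438079 and 2017 nt with PBS. For LLGL1 it was 4136 nt with A740003, 3989 nt with A438079 and 3948 nt with PBS, and for PARD3 it lay between 3050 and 3096 nt. Among 10766 genes with at least 1 FPKM in each library, the ratio of this length with A740003 over A438079 had a 5th to 95th percentile range of 0.818 to 1.23, and that of SCRIB was 0.376. SCRIB has 8 annotated transcripts, 5 of them coding, and no counts per transcript were used here, so which transcripts held the 26 counts is not known. Other members also depended on the unit. Between the antagonists LLGL1 kept its direction in FPKM, with a ratio of 0.628, LLGL2 stood at 0.963 in FPKM beside 1.18 in counts, and CRB3 at 1.5 beside 1.24. Over PBS, LLGL2 had FPKM ratios of 0.649 for A740003 and 0.674 for A438079, and CRB3 had 0.923 for A740003 and 0.614 for A438079. Thus in FPKM, by fold alone with a pseudocount of 0.1, the genes past 1.5-fold lower were SCRIB, LLGL1 and LLGL2 with A740003 (12.1% of all genes) and SCRIB, LLGL1 and CRB3 with A438079 (11.6%). With that pseudocount none of the 8 was past it for A740003 over A438079 (4.42%). Without a pseudocount 1 of the 8, LLGL1 at 0.628, was past it.

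**Figure D3:**
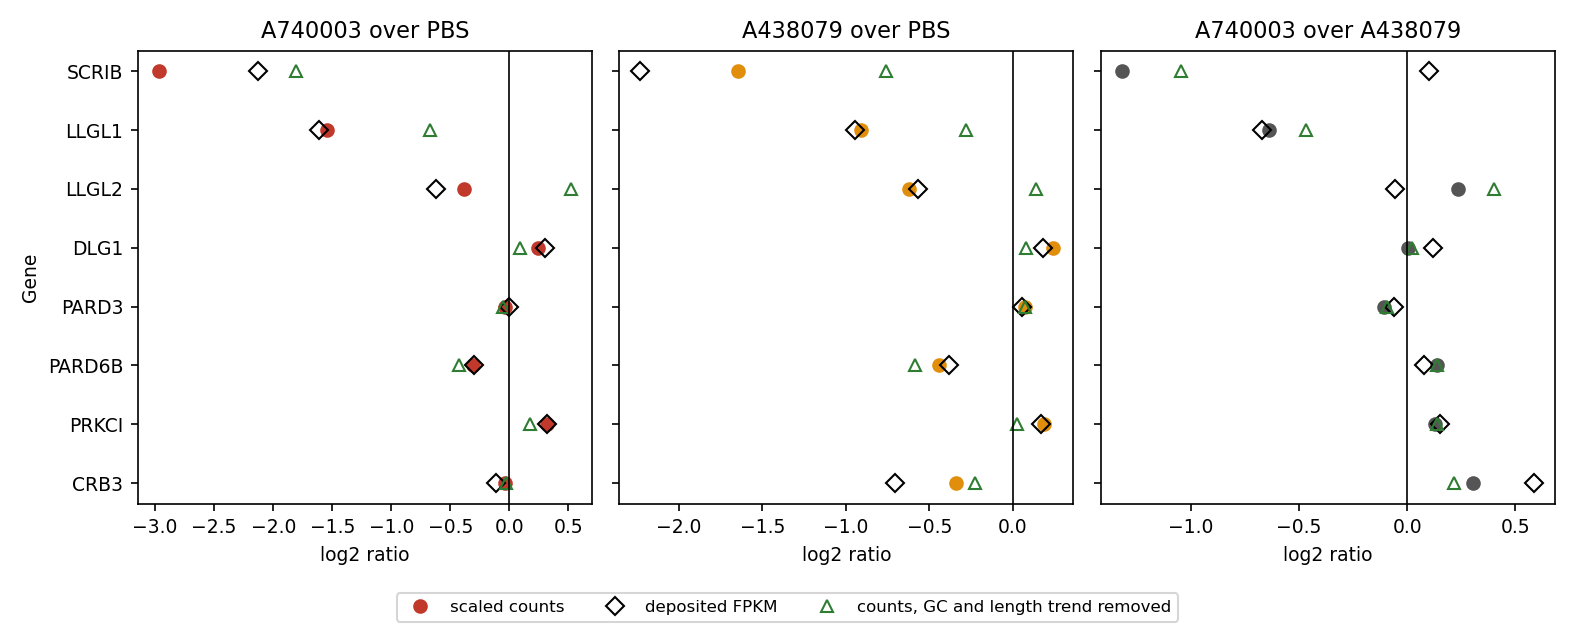
Log2 ratio of each of the 8 genes (rows) in the 3 comparisons (panels) from scaled counts (circles), the authors' FPKM (diamonds) and scaled counts with the trend in GC content and length removed (triangles). The SCRIB diamond lies at 1.07-fold, right of 0, in the A740003 over A438079 panel, while its circle lies at 0.395-fold.

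Genes of high GC content were lower in both antagonist libraries across the whole table. Of the genes in the highest of the 4 GC groups, 29.3% were lower with A740003 and 26.6% with A438079, against 2.12% and 1.68% in the lowest group. For the genes nearest to SCRIB in rank of GC content and transcript length, the median log2 ratio was -1.16 with A740003 and -0.89 with A438079. With that median taken away gene by gene, SCRIB had a log2 ratio of -1.81 with A740003 and -0.76 with A438079, so it remained past 1.5-fold in both. SCRIB was chosen for its low ratios over PBS, so its values here only describe that choice. LLGL1 had -0.67 with A740003 and -0.28 with A438079, past 1.5-fold only with A740003. LLGL2 lay above its surroundings, at 0.52 for A740003 and 0.14 for A438079, so that its direction turned round. DLG1 and PRKCI moved towards 0, with DLG1 at 0.091 for A740003 and 0.077 for A438079, and PRKCI at 0.17 for A740003 and 0.026 for A438079. PARD6B, a gene of low GC content, moved the other way, to -0.43 with A740003 and -0.59 with A438079. By fold alone on this scale, SCRIB and LLGL1 were the 2 of 8 genes past the lower limit with A740003, beside 7.29% of all genes, and SCRIB and PARD6B were the 2 of 8 with A438079, beside 5.45%. The GC groups still differed on this scale. In the highest group 13.3% of genes were past the limit with A740003 and 9.61% with A438079, against 3.46% and 2.45% in the lowest group.

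**Figure D4:**
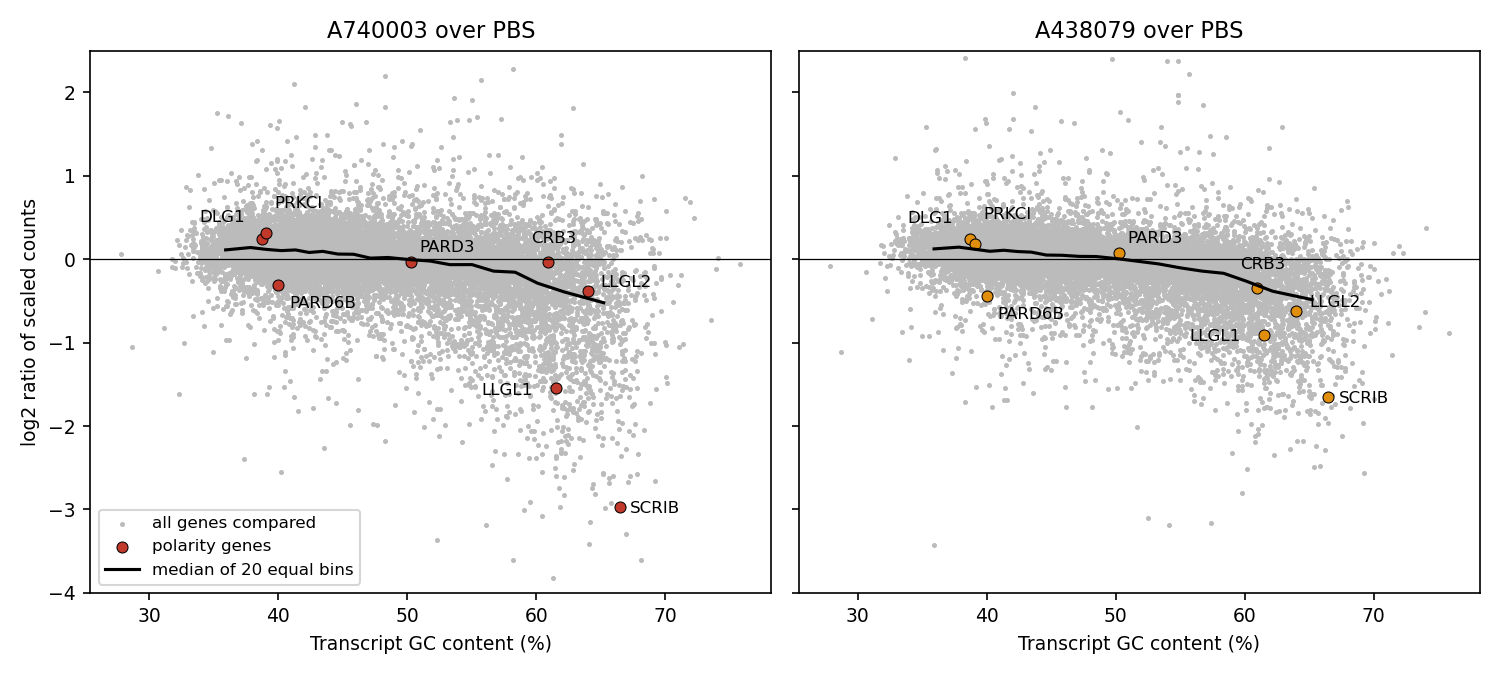
Log2 ratio of scaled counts against the GC content of the longest coding transcript in percent, for A740003 over PBS (left) and A438079 over PBS (right). Grey points are all genes compared, coloured points the 8 polarity genes, and the line joins the medians of 20 equal bins; 23 and 26 genes lie outside the axis range of -4 to 2.5. SCRIB, at 66.5% GC and chosen for its low ratios, lies far below the line in both panels, and DLG1, PRKCI and PARD3 lie near it.

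The neighbours described were the 3 measured coding genes on either side of SCRIB on chromosome 8. Among these 6 genes, 3 were lower with A740003 (FAM83H, NRBP2 and EPPK1), beside 10.7% of all genes. With A438079, 4 were lower (these and ZNF707), beside 9.44%, and none was higher with either. All but ZNF623 were in the highest GC group, where 29.3% of all genes were lower with A740003 and 26.6% with A438079. With the trend in GC and length removed, 3 were past 1.5-fold lower with A740003 and 4 with A438079. The shares of all genes on that scale were 7.29% and 5.45%, and those of the highest GC group 13.3% and 9.61%. PUF60, a splicing factor gene that lies 965 bases from SCRIB on the same strand and has a GC content of 62.6%, had 1049 counts with A740003, 980 with A438079 and 1002 with PBS. Its ratios over PBS were 1.02 (0.936 to 1.11) for A740003 and 0.980 (0.896 to 1.07) for A438079. On the other side FAM83H, a gene needed for tooth enamel, with a GC content of 66.3%, had 30 counts with A740003, 36 with A438079 and 136 with PBS, and stood at 0.215 times (0.140 to 0.321) for A740003 and 0.265 (0.178 to 0.385) for A438079. EPPK1, the epiplakin gene, with a GC content of 68.1% and a transcript of 16002 nt, had 6 counts in the A740003 library, 22 in that of A438079 and 77 in that of PBS, or 0.0760 times PBS (0.0271 to 0.173) for A740003 and 0.286 (0.170 to 0.465) for A438079. NRBP2 stood at 0.471 times (0.292 to 0.746) under A740003 and at 0.551 times (0.349 to 0.856) under A438079. ZNF623, with a GC content of 43.5%, stood at 1.12 times for A740003 and 1.13 for A438079, and both intervals include 1. ZNF707 stood at 0.642 times (0.371 to 1.09) for A740003 and 0.554 (0.309 to 0.968) for A438079. SCRIB thus lay between a neighbour with a ratio near 1 and a neighbour that was also low, whose counting intervals overlap those of SCRIB.

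The genes whose pair of ratios over PBS was most like that of SCRIB were PRRC2A, PIEZO1, SBF1, HCFC1 and MMP15, at distances of 0.25 to 0.39 on the log2 scale. Likeness was the Euclidean distance over 2 log2 ratios from 3 libraries, among genes whose mean reached 5 CPM. SCRIB itself lay only just above that limit. PIEZO1 and HCFC1, like SCRIB, were under 5 CPM with either antagonist and passed the limit through PBS. All 5 had a GC content of at least 61.5%, in the highest of the 4 equal GC groups, and none was on chromosome 8. The genes were picked for their ratios, so the values that follow only describe the choice. With A740003 they stood at 0.147 to 0.163 times PBS, and with A438079 at 0.290 to 0.373 times.

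Among 175 other genes of polarity, junctions and membrane domains in 10 lists, 134 were compared. Of these, 23 were lower and 3 higher with A740003, a share lower of 17.2% beside 10.7% of all genes. With A438079, 15 were lower and none higher, a share of 11.2% beside 9.44%. In the highest GC group stood 37 of the 134, and they held 17 of the 23 genes lower with A740003 and 11 of the 15 lower with A438079. That is 45.9% of the 37 with A740003, beside 29.3% of all genes of that GC group, and 29.7% with A438079, beside 26.6%. SIK1, CLDN15 and CELSR3, 3 of the genes lower with both, were under 1 CPM with either antagonist and passed the filter through PBS, so they had to differ. Without them 20 were lower with A740003 and 12 with A438079. With the GC and length trend removed, 13 of the 134 (9.70%) were past 1.5-fold lower with A740003 and 9 (6.72%) with A438079, beside 7.29% and 5.45% of all genes. On that scale 13.3% of all genes of the highest GC group were still past the limit with A740003 and 9.61% with A438079. The median log2 ratio of the 134 was -0.034 with A740003 and -0.0042 with A438079.

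Of 11 measured genes listed as partners of Scribble, 5 were lower with A740003 (45.5%, beside 10.7% of all genes). With A438079, 4 were lower (36.4%, beside 9.44%), and none was higher with either. Whether the product of each gene on this list, which includes GUK1 and KIF13B, binds Scribble was not checked. With the trend in GC and length taken away, 2 of the 11 were past 1.5-fold lower with A740003 (18.2%, beside 7.29% of all genes) and 1 with A438079 (9.09%, beside 5.45%). PHLPP1, a phosphatase gene for AKT whose product binds Scribble, had 110 counts with A740003, 186 with A438079 and 365 with PBS. It was lower with either antagonist, at 0.294 times PBS (0.235 to 0.365) under A740003 and at 0.511 times (0.426 to 0.611) under A438079. Its log2 ratios were -1.22 for A740003 and -0.51 for A438079 after the trend in GC and length was taken away. GIT1, which encodes a scaffold of the PIX and PAK complex, stood at 0.455 times PBS for A740003 and 0.539 for A438079, but its log2 ratios without that trend were -0.15 for A740003 and -0.12 for A438079. TBC1D16 stood at 0.416 times for A740003 and 0.480 for A438079 (-0.22 for A740003 and -0.26 for A438079 with the trend removed). KIF13B, a kinesin gene, stood at 0.509 times under A740003 and at 0.677 times under A438079. Named after their values were seen, LPP was the fifth gene lower with A740003, at 0.613 times, and NOS1AP the fourth lower with A438079, at 0.513 times (0.288 to 0.889). NOS1AP had few counts, 21 with A438079 and 41 with PBS. Of 5 measured relatives of the Scribble module genes, DLG5, the gene of another DLG family protein, was the one lower, at 0.374 times PBS (0.315 to 0.443) under A740003 and at 0.451 times (0.383 to 0.530) under A438079. That is 20% of the 5 in either library, beside 10.7% of all genes with A740003 and 9.44% with A438079. ERBIN, which encodes a protein of the same leucine-rich repeat and PDZ family as Scribble, had 2412 counts with A740003, 2213 with A438079 and 2015 with PBS, or 1.17 times (1.10 to 1.24) for A740003 and 1.10 (1.04 to 1.17) for A438079. LRRC1, a further gene of that family, stood at 0.877 times for A740003 and 1.03 for A438079, and STXBP5, a gene related to the LGL genes, at 0.781 times for A740003 and 0.775 for A438079.

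The other PAR complex and Crumbs genes were mostly near PBS. Of 9 other PAR complex and CDC42 genes, 1 was lower with A740003 (PARD6G, at 0.444 times) and 1 with A438079 (TIAM2, at 0.360 times). Both were named after their values were seen. Each is 11.1% of the 9, beside 10.7% of all genes with A740003 and 9.44% with A438079. TIAM2 rested on few expected counts, 14.01 with A438079 and 39.31 with PBS (interval of the ratio 0.180 to 0.677). PARD6G had 41 with A740003 and 90 with PBS (0.299 to 0.650). PRKCZ, the gene of the other atypical protein kinase C, had a GC content of 59.6% and stood at 0.978 times PBS (0.878 to 1.09) under A740003 and at 0.901 times (0.806 to 1.01) under A438079. RAC1, a small GTPase gene, stood at 1.17 times for A740003 and 1.15 for A438079, NUMB at 1.11 times for A740003 and 1.13 for A438079 and ARHGAP29 at 1.09 times for A740003 and 1.13 for A438079. Of 10 other Crumbs module genes, EPB41L4B, which encodes a FERM-domain protein, was lower with A740003, at 0.665 times (0.589 to 0.751), and stood at 0.751 times (0.668 to 0.845) with A438079. Its relative EPB41L5 stood at 1.30 times for A740003 and 1.14 for A438079, MPP7 at 1.34 times for A740003 and 1.12 for A438079 and AMOTL2 at 0.808 times for A740003 and 0.734 for A438079. The 1 gene of this group lower with A438079 was MPP3, at 0.477 times (0.265 to 0.831), named after its values were seen. MPP3 had few counts, 20 with A438079 and 42 with PBS. In each library 1 of the 10 Crumbs module genes was thus lower (10%), beside 10.7% and 9.44% of all genes.

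Of 13 kinase genes of the PAR-1 and LKB1 group, 4 were lower with A740003 (30.8%, beside 10.7% of all genes) and 2 with A438079 (15.4%, beside 9.44%). With the trend in GC and length taken away, 2 in each were past 1.5-fold lower (15.4%), beside 7.29% of all genes with A740003 and 5.45% with A438079. STK11, which encodes LKB1, the kinase upstream of the PAR-1 kinases, had 115 counts with A740003, 128 with A438079 and 352 with PBS. It stood at 0.319 times PBS (0.256 to 0.394) for A740003 and 0.364 (0.295 to 0.447) for A438079, and was past 1.5-fold in both also with the GC and length trend removed, at log2 ratios of -0.69 for A740003 and -0.67 for A438079. The PAR-1 kinase genes MARK4 and MARK2 passed the rule with A740003. MARK4 stood at 0.419 times (0.308 to 0.565) under A740003 and at 0.740 times (0.573 to 0.953) under A438079, and MARK2 at 0.610 times (0.480 to 0.773) for A740003 and 0.809 (0.648 to 1.01) for A438079. With that trend removed the log2 ratio for A740003 was -0.54 for MARK4 and 0.010 for MARK2, so neither was past 1.5-fold. STRADA, the gene of a pseudokinase that activates LKB1, stood at 1.31 times for A740003 and 1.14 for A438079. SIK1, a kinase gene named after its values were seen, passed the filter through PBS alone and stood at 0.264 times for A740003 and 0.376 for A438079.

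Junction genes lay on both sides of PBS. Of 23 other tight junction genes, 4 were lower (17.4%, beside 10.7% of all genes) and 2 higher (beside 3.14%) with A740003. With A438079, 2 were lower (8.70%, beside 9.44%) and none was higher (beside 1.63%). With the GC and length trend removed, 3 were past 1.5-fold lower with A740003 and 1 with A438079, beside 7.29% and 5.45% of all genes. CGNL1, which encodes paracingulin, was the tight junction gene that was highest by the naming rule, with 340 expected counts with A740003, 315.98 with A438079 and 217 with PBS, or 1.53 times (1.29 to 1.82) for A740003 and 1.46 (1.22 to 1.74) for A438079. F11R, the gene of the adhesion molecule JAM-A that recruits PAR3, stood at 0.638 times (0.586 to 0.694) under A740003 and at 0.804 times (0.743 to 0.870) under A438079. CLDN6, a claudin gene expressed mainly in embryonic tissue, stood at 0.634 times for A740003 and 0.864 for A438079, and SYMPK at 0.465 times for A740003 and 0.588 for A438079. The other genes called in this list, named after their values were seen, were CLDN2, higher with A740003 at 1.51 times, and CLDN15, which passed the filter through PBS alone, at 0.518 times for A740003 and 0.344 for A438079. Of 18 adherens junction and desmosome genes, 4 were lower with A740003 (22.2%) and 2 with A438079 (11.1%), beside 10.7% and 9.44% of all genes. Without the GC and length trend, 3 of the 18 were past 1.5-fold lower with A740003 (16.7%, beside 7.29% of all genes) and 2 with A438079 (11.1%, beside 5.45%). CDH1, the gene of E-cadherin, had 124 counts with A740003, 133 with A438079 and 99 with PBS, or 1.22 times (0.930 to 1.61) for A740003 and 1.35 (1.03 to 1.76) for A438079. NECTIN4 stood at 0.523 times under A740003 and at 0.945 times under A438079, PKP3 at 0.541 times for A740003 and 0.697 for A438079 and NECTIN2 at 0.820 times for A740003 and 0.764 for A438079. The lowest of this list were JUP, the plakoglobin gene, at 0.190 times for A740003 and 0.355 for A438079, and NECTIN1, at 0.192 times for A740003 and 0.395 for A438079, both of a mean under 5 CPM and named after their values were seen.

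Of 12 planar cell polarity genes, in which pathway Scribble also acts, 3 were lower with A740003 (25%, beside 10.7% of all genes). With A438079, 1 of them was lower (8.33%, beside 9.44%). With the GC and length trend removed none was past 1.5-fold lower in either library, beside 7.29% of all genes with A740003 and 5.45% with A438079. PTK7 stood at 0.546 times PBS for A740003 and 0.712 for A438079 and DVL1 at 0.571 times for A740003 and 0.728 for A438079, while DVL2 stood at 0.837 times for A740003 and 0.743 for A438079 and DVL3 at 0.794 times for A740003 and 0.855 for A438079. CELSR3, a cadherin gene named after its values were seen, passed the filter through PBS alone and was the 1 gene of the list called with A438079, at 0.459 times for A740003 and 0.442 for A438079. Of 19 canalicular and apical trafficking genes none was past 1.5-fold in either direction with either antagonist, beside the shares of all genes given above. Among them the drug efflux pump gene ABCB1 stood at 1.35 times for A740003 and 1.21 for A438079, VIPAS39 at 1.27 times for A740003 and 1.27 for A438079, the ezrin-binding scaffold gene NHERF1 at 0.710 times for A740003 and 0.717 for A438079 and ANPEP, an apical peptidase gene, at 0.760 times for A740003 and 0.708 for A438079. Of 14 basolateral membrane genes, 1 was higher and 0 were lower with A740003, beside 3.14% and 10.7% of all genes. With A438079, 0 were higher and 1 was lower (7.14%), beside 1.63% and 9.44%. The gene higher with A740003 was EGFR, at 1.70 times (1.28 to 2.26), and it stood at 1.35 times (1.0 to 1.82) with A438079. ABCC3, a basolateral efflux pump gene, stood at 0.678 times for A740003 and 0.654 for A438079, lower by the rule with A438079 alone, and TFRC, the transferrin receptor gene, at 1.40 times for A740003 and 1.47 for A438079. SLC2A2, a glucose transporter gene, stood at 0.736 times for A740003 and 1.01 for A438079.

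**Figure D5:**
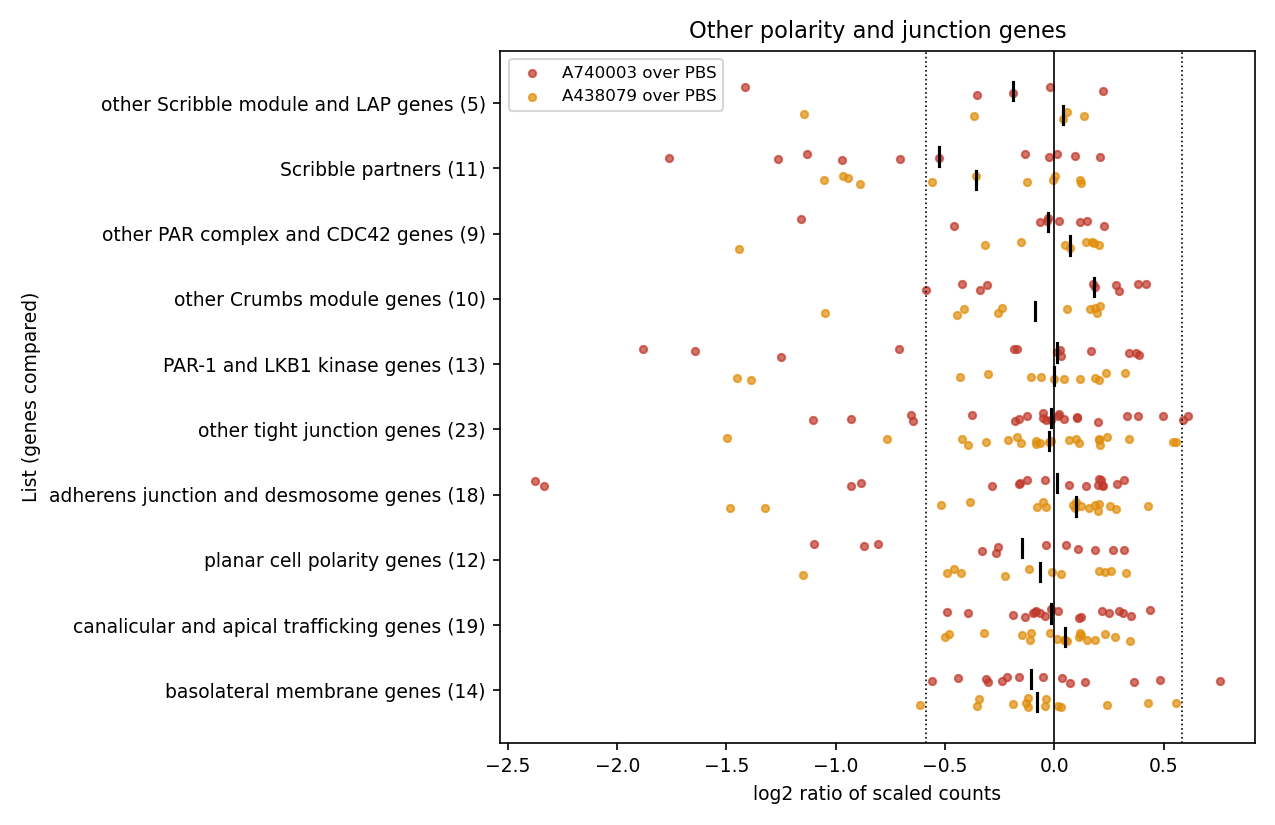
Log2 ratio of scaled counts over PBS for the 134 other genes compared, by list, with A740003 above A438079 in each row. Points are genes, black bars list medians, and dotted lines mark 1.5-fold. The genes listed as partners of Scribble have medians of -0.53 with A740003 and -0.36 with A438079. Without the trend in GC and length, which is not plotted, these are -0.22 with A740003 and -0.18 with A438079. No canalicular gene lies beyond the dotted lines.

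Annotation in the deposited table gave broader groups, which were looked up after the ratios were seen and leave out the 8 genes. Of 107 measured genes of the KEGG Hippo signaling pathway, 15.9% were lower with A740003 and 12.1% with A438079, beside 10.7% and 9.44% of all genes. Of 126 measured genes of the KEGG tight junction pathway, 16.7% were lower with A740003 and 10.3% with A438079. Of 77 measured genes with a Pfam PDZ domain, the fold that Scribble, DLG1, PAR3 and PAR6 share, 16.9% were lower with A740003 and 15.6% with A438079. Without the trend in GC and length the shares for A740003 were 14% of the Hippo genes, 11.3% of the tight junction genes and 10.4% of the PDZ genes, beside 7.29% of all genes. For A438079 they were 8.41%, 6.45% and 9.09% of these groups, beside 5.45%.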

How the data were processed

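RNA-seq libraries of HepG2 cells were made with a SMARTer kit from RNeasy-extracted RNA, per the labels' protocols. The authors deposited expected counts per gene, estimates that need not be whole, and FPKM values per gene, which they scaled for length and library size. The submitters' processing notes name GRCm38, a mouse build, although the rows are human genes. The aligner, counter, annotation and use of strand are likewise not given in the sources used here. Values of overlapping and antisense genes are uncertain. Of the 8 genes found, 5 had expected counts that lay within 0.005 of whole numbers in each of 3 libraries.

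Counts were rounded, and TMM factors came from edgeR 4.0.16 under R 4.3.3. A CPM of 1 was 19.4 to 19.9 counts. Rows without an Ensembl identifier (116 rows, 0.0775% to 0.0853% of counts) stayed in library totals. Intervals of ratios were exact conditional binomial (Clopper-Pearson, scipy 1.17.1) at 95%. Log2 ratios used a pseudocount of 0.5 counts, and those from FPKM used 0.1 or 1. The longest coding transcript of GENCODE release 29, matched by gene identifier, gave GC content and length for 11906 of 12270 genes (97.0%), and the trend at a gene was the median over its nearest genes by rank of both. The steps were tested on simulated data.

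Named genes were the list's members, up to 4 genes of each further list with a mean of 5 CPM or more whose log2 ratios over PBS were furthest from 0, the 5 genes nearest to SCRIB in pattern, and up to 3 measured coding genes on either side of it. The members and lists were chosen with earlier results of these data known. The alternatives scaled by total counts, by the upper quartile or by DESeq2 1.42.0 size factors, or used other filters, a 2-fold limit, unrounded counts, FPKM, the GC and length trend and, chosen after seeing the data, genes with whole counts.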

Additional observations from a re-analysis of the deposited data

How the results depend on the processing

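Total counts, DESeq2 size factors, upper quartile scaling, no filter on low counts and unrounded counts kept every count of lower members, every count of other polarity genes within 1.5 times. At a mean of at least 5 CPM, 1 member was lower with A740003 over PBS and 1 with A740003 over A438079, since LLGL1 falls under that filter, and 7 and 3 other polarity genes were lower with A438079 over PBS and A740003 over A438079. At 2-fold, 1 member was lower with A438079 over PBS and 1 with A740003 over A438079, and 12 other genes with A740003 over PBS and 1 with A740003 over A438079. In FPKM with a pseudocount of 0.1, no member (0) and 10 other genes were lower with A740003 over A438079, and with a pseudocount of 1, 1 member was lower with A438079 over PBS and 0 with A740003 over A438079. The log2 ratio of SCRIB for A740003 over A438079 reversed to 0.093 and 0.054 with those pseudocounts; the lengths behind the FPKM values differ between the libraries. Once the trend in GC and length was taken out, 13 and 9 other genes were lower with A740003 and A438079 over PBS, 1 member with A740003 over A438079, and the log2 ratio of LLGL2 over PBS reversed to 0.14 with A438079 and, from a value that was not called, to 0.52 with A740003. With whole counts only, 1 member was lower with A740003 over PBS and 1 with A740003 over A438079, since LLGL1 is left out. LLGL2 for A740003 over A438079 also changed sign in FPKM, to -0.053 and -0.044. Filters and the 2-fold limit leave a gene's ratio as it is; of 168 ratios of single members recomputed under the other settings, 150 stayed within the counting interval, and 7 changed sign, of which the one not named here was DLG1 near 0. No paired analysis was possible because each treatment had 1 library, and no library could be left out. Depth limits CRB3, SCRIB and LLGL1 most, at 26 to 202 counts.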
